A study of Rattus norvegicus with 4 samples.

Results

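The genes described here are those of the histones, the proteins around which DNA is wound, in cultured neonatal rat ventricular cardiomyocytes. They were chosen by gene name in the authors' deposited table, as protein-coding genes whose names begin with Hist1h to Hist4h, H1f, H2af or H3f. The rule found 57 of the 32883 genes in the files. Of these, 44 carry names of the Hist clusters and 13 carry names of replacement or variant histones. A summed count of at least 15 over the 4 libraries was reached by 51 members, 42 of the clusters and 9 of the replacement and variant group. The members nearest to that limit were Hist1h2ba, with a summed count of 32, and H1fnt, with 1. The other 5 members below it, H1foo, H2afb3, H2afj, Hist1h4b and Hist2h4, had no read in any library. Hist1h4b and Hist2h4 are H4 genes, which have near-identical copies. How reads that match several copies were counted is not given, so their lack of reads is uncertain. Of the 51, the expression filter of the test kept 50, leaving out Hist1h2ba.

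The cells came from Sprague-Dawley rats at postnatal day 2, and 2 libraries were made from cells given phenylephrine (PE, 20 µM for 24 h) and 2 from untreated cells (control). PE stimulates alpha-adrenergic receptors and makes these cells enlarge. Cells of both groups were plated briefly to remove non-cardiomyocytes, then kept on gelatin in medium with fetal bovine serum. RNA was depleted of ribosomal RNA without selection for poly(A) tails and sequenced with strand information. The protocol text names PE for all 4 samples, and the groups were taken from the sample titles. Nothing in the labels states that replicates came from separate cultures, and the p-values below therefore cover the spread among these libraries alone, which may be technical.

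Cluster histone genes supply the bulk of new histone during DNA replication. In mammals their messages mostly end in a stem-loop instead of a poly(A) tail, are bound there by the protein Slbp, and accumulate in S phase. Replacement histones come from genes outside the clusters, usually have introns and poly(A) tails, and are made throughout the cell cycle, also in cells that no longer divide. Neonatal cardiomyocytes are leaving the cell cycle at the age sampled.

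The starts of these genes can be compared in sequence. RefSeq windows of the 250 bases before the annotated start, on build GRCr8, were assigned to 35 of the 57 members, since 20 members share a symbol or match several RefSeq genes and 2 had no match. They are shown to set the short sequences typical of cluster gene starts beside a replacement gene, and because the first window is largely shared by a pair of neighbouring genes whose log2 fold changes were among the lowest. Capitals mark the letters CCAAT (the CCAAT box), TATAAA (the TATA box) and ATTTGCAT (the octamer) on either strand. The first window is that of Hist2h2ac, an H2A gene, at chr2:186469227-186469476 on the minus strand. Next is Hist1h1e, a linker histone gene, at chr17:41914175-41914424 on the plus strand. The window of Hist1h2bk, an H2B gene, lies at chr17:47181941-47182190 on the minus strand. The last is that of H2afz, which encodes the replacement histone H2A.Z, at chr2:229028845-229029094 on the plus strand.
Hist2h2ac: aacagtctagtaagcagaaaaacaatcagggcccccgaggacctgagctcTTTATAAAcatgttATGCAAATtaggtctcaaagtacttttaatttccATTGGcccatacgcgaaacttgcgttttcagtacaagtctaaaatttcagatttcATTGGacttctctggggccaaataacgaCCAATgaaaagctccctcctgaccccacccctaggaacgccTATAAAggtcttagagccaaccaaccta
Hist1h1e: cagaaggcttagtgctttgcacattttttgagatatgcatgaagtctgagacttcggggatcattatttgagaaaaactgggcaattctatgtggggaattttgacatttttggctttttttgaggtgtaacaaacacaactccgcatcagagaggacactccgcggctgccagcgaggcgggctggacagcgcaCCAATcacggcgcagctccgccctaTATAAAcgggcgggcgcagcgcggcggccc
Hist1h2bk: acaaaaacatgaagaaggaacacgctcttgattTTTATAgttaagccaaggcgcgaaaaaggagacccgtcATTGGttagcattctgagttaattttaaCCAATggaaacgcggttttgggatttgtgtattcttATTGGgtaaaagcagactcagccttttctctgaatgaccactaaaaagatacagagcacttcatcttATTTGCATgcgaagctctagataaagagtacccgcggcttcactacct
H2afz: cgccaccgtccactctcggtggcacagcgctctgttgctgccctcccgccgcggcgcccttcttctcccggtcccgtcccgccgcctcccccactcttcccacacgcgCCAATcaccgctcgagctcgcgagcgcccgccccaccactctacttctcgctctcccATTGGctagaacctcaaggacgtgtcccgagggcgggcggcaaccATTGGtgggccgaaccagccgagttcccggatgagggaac

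CCAAT was found in 22 of 24 cluster windows and 7 of 11 replacement windows, against 34% of all 33469 RefSeq windows of this length. TATAAA was found in 16 of 24 cluster windows and 1 of 11 replacement windows, that of H3f3b, against 12.9% of all windows. ATTTGCAT was found in 10 of 24 cluster windows, 5 of them among the 8 H2B windows and 5 among the 10 H2A windows, and in 1 replacement window, against 1.56% of all. Both strands were searched and overlapping matches were counted. These matches describe the letters only. The windows of Hist2h2ac and Hist2h2be share 225 bases on opposite strands, so that the octamer printed above for Hist2h2ac is also the one in the window of Hist2h2be. Hist1h2aa and Hist1h2ba, known from testis, are the other pair of members with a shared window, of 239 bases.

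PE-treated cells were compared with untreated cells. In this comparison, cluster histone genes had mostly negative log2 fold changes of modest size, and 2 of them fell. These were Hist2h2ac and 1 of the 5 identifiers named Hist2h3c2, which encodes histone H3. None of the 9 replacement and variant genes tested passed. Log2 fold changes were negative in 35 of 41 cluster genes tested, with a median of -0.35, and in 6 of 9 replacement and variant genes, with a median of -0.10. Among all 15257 genes tested, 7740 were negative and the median was -0.01. The difference between the cluster and replacement medians was not tested.

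**Figure D1:**
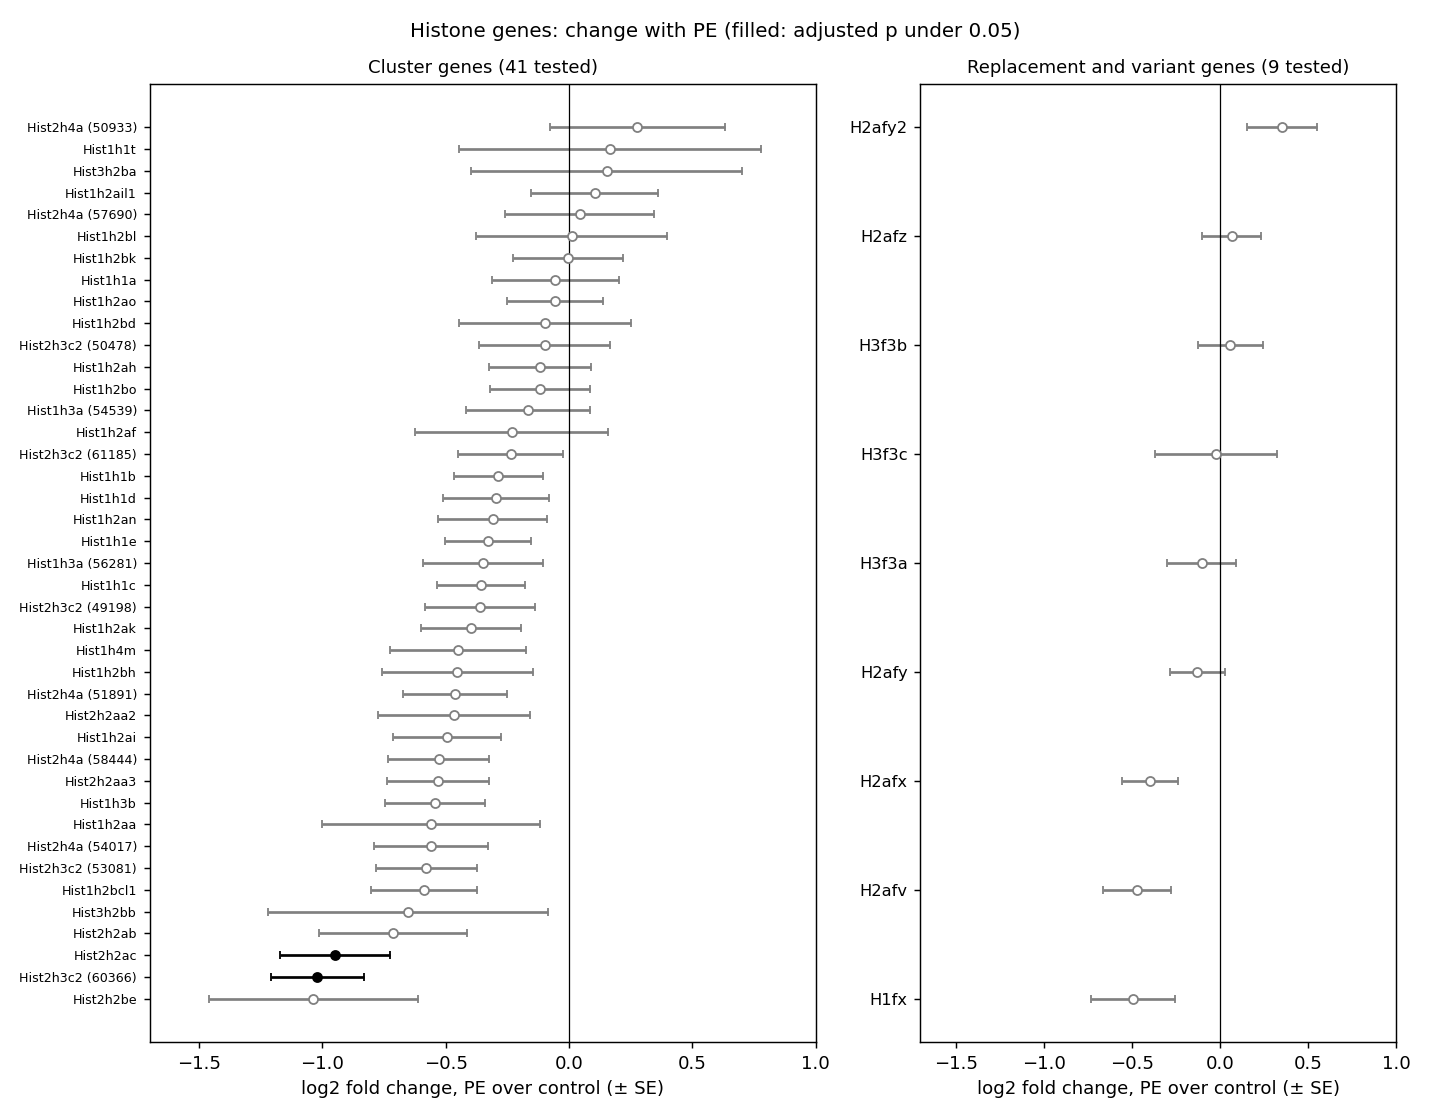
Log2 fold change of PE over control with its standard error (x axis) for each tested histone gene, ordered within the cluster genes (left, 41) and the replacement and variant genes (right, 9). Numbers in brackets are the last digits of the identifier where a symbol is shared, filled points passed the test, and 35 of the 41 cluster genes and 6 of the 9 others lie left of 0.

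Of the 41 cluster genes, 2 were called lower by edgeR's quasi-likelihood test, or 4.88%, against 8.3% of all genes tested. No cluster gene was called higher by edgeR or DESeq2, against 7.39% of all genes in edgeR. In all, 15.7% of genes were called in either direction. The share of cluster genes called was below these backgrounds. At an unadjusted p under 0.05, 11 of 41 cluster genes were lower (26.8%), against 15.1% of all genes, and 0 were higher, against 13.7% of all genes. Both PE libraries lay below both control libraries in 18 of 41 cluster genes (43.9%) and above both in 1 (2.44%). Among all genes these shares were 28.1% and 28.5%. Of the 9 replacement and variant genes, 4 lay below (44.4%) and 2 above (22.2%), so the share below was similar in the 2 classes. For the replacement and variant genes edgeR called 0 of 9, DESeq2 also called 0, and 2 had an unadjusted p under 0.05, both of them lower (22.2%, against 15.1% of all genes).

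Hist2h2ac (ENSRNOG00000030736), a gene for an H2A protein of the Hist2 cluster, had 10.6 and 15.5 CPM (counts scaled to library size) in PE replicates 1 and 2 and 22.4 and 28 CPM in control replicates 1 and 2. Both PE libraries were below both controls. It fell by 0.95 ± 0.22 (SE) on the log2 scale (adjusted p = 0.0171, n = 2 each). The call was lost without PE replicate 1, at -0.69, and was kept in the other 9 alternatives. Alternatives that leave 1 library in a group take their spread from the remaining pair alone.

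Hist2h3c2 (ENSRNOG00000060366), a histone H3 gene, had 13.4 and 16.3 CPM in the PE libraries and 32.5 and 27.7 CPM in the controls, again without overlap. It fell by 1.02 ± 0.19 on the log2 scale (adjusted p = 0.00464, n = 2 each). Without PE replicate 1 it was at -0.88 and did not pass, while it passed in the other 9 alternatives, with the same limit. In the authors' deposited table these same genes are the members with an adjusted p under 0.05, Hist2h2ac at -0.95 (adjusted p = 0.00142) and ENSRNOG00000060366 at -1.02 (adjusted p = 3.93e-05).

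The identifiers named Hist2h3c2 did not all behave like the one that fell. ENSRNOG00000053081 had 46.7 and 67.2 CPM in PE against 93.3 and 76.7 CPM in control (log2 fold change -0.58 ± 0.20, adjusted p = 0.0869), with no overlap. ENSRNOG00000049198 had 19.9 and 29.8 CPM in PE against 35.9 and 27.9 CPM in control (-0.36 ± 0.22, adjusted p = 0.333), and the groups overlapped. ENSRNOG00000050478 had 22.1 and 32.7 CPM in PE against 36.8 and 21.8 CPM in control (-0.10 ± 0.27, adjusted p = 0.853), with control replicate 2 the lowest of the 4 libraries. ENSRNOG00000061185 was at -0.24 ± 0.21 (adjusted p = 0.52). Histone genes of a type are nearly identical in their coding parts, and how the counting treated reads that match several copies is not given in the sources used here, so values of single copies are uncertain. Summed over the 5 identifiers, Hist2h3c2 gave 113 and 161 CPM in PE and 215 and 168 CPM in control, with PE replicate 2 just below control replicate 2.

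The Hist2 genes nearest to Hist2h2ac were also among the lowest members. In RefSeq (GRCr8), Hist2h2ab, Hist2h2ac and Hist2h2be are consecutive protein-coding genes on chromosome 2, after Bola1. Of the 50 members tested, Hist2h2be had the lowest log2 fold change, ENSRNOG00000060366 the second lowest, Hist2h2ac the third and Hist2h2ab the fourth. ENSRNOG00000060366 shares its symbol and was not placed in the gene order. Beyond Hist2h2be in that order come the RefSeq genes Hist2h2aa2 and H2ac18. The members Hist2h2aa2 and Hist2h2aa3, which could not both be matched uniquely to these positions, ranked 16 and 11 from the lowest, at -0.47 and -0.53. Hist2h2be (ENSRNOG00000045753), an H2B gene, had 28 and 28 counts in PE and 76 and 37 counts in control, a log2 fold change of -1.04 ± 0.42 that did not pass (adjusted p = 0.135). Hist2h2ab (ENSRNOG00000048317), an H2A gene, had 62 and 55 counts in PE and 95 and 89 counts in control, at -0.71 ± 0.30 (adjusted p = 0.147). Both genes kept their PE libraries below their controls, on few reads. Hist1 and Hist2 genes were told apart by name alone. The identifiers named Hist2h3c2 and Hist2h4a, 5 of each, were not placed on a chromosome and may lie elsewhere. Over the 15 tested genes with Hist2 names the median log2 fold change was -0.53, with 13 negative. Of these 15, 10 were without overlap, all lower in PE, and 8 had an unadjusted p under 0.05 (53.3%), all lower. The 24 tested genes with Hist1 names had a median of -0.29, with 21 negative and 8 lower in PE without overlap. None of these 24 was called by edgeR or DESeq2, although 3 had an unadjusted p under 0.05 (12.5%), all lower. Of all genes, 15.1% were lower at that threshold. The shares lower in PE without overlap were 66.7% for Hist2 and 33.3% for Hist1, against 28.1% of all genes, so Hist1 was near the background in this share. The shares higher in PE without overlap were 0% for Hist2 and 0% for Hist1, against 28.5% of all genes. The difference between Hist1 and Hist2 was not tested.

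Among linker histones, which bind DNA where it enters and leaves the nucleosome, Hist1h1c had 193 and 212 CPM in PE and 294 and 224 CPM in control (-0.36 ± 0.18, adjusted p = 0.227). Hist1h1e had 44.2 and 56.3 CPM in PE and 64.3 and 61.8 CPM in control (-0.33 ± 0.18, adjusted p = 0.254). Hist1h1b had 32.8 and 41.4 CPM in PE and 48.2 and 42.3 CPM in control (-0.29 ± 0.18, adjusted p = 0.339). In these 3 genes no PE library reached a control library, yet the gap to control replicate 2 was small and none passed. Hist1h1d and Hist1h1a were at -0.30 and -0.06 with overlapping groups. Hist1h1t, the testis linker histone, had 8 to 18 counts per library.

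Of the 5 types, the H4 genes differed most between the control libraries, by a median of 0.74 in log2 CPM. Hist1h4m had 41.4 and 56 CPM in PE and 86.9 and 46.1 CPM in control (-0.45 ± 0.27, adjusted p = 0.323), so that control replicate 1 stood above the other 3 libraries. Without control replicate 1 it was at 0.09 (adjusted p = 0.737). Hist2h4a is the name of 5 identifiers. ENSRNOG00000058444 had 41.5 and 45.9 CPM in PE and 75.3 and 50.7 CPM in control (-0.53 ± 0.20, adjusted p = 0.115), and ENSRNOG00000051891 had 22.6 and 25.4 CPM in PE and 26.6 and 39.5 CPM in control (-0.46 ± 0.21, adjusted p = 0.181). The controls were thus ordered oppositely in these copies of the same gene name. The other 3 identifiers ranged between -0.56 and 0.28, and summed over all 5 the level was 92.8 and 97.7 CPM in PE and 135 and 126 CPM in control, without overlap.

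The H2A genes of the clusters other than Hist2h2ac had log2 fold changes between -0.71 and 0.11. Hist1h2an had 18.5 and 23.4 CPM in PE and 30.8 and 21.1 CPM in control (-0.31 ± 0.22, adjusted p = 0.403), with overlap. Both PE libraries were below both controls in 6 of the 12 H2A genes (50%, against 28.1% of all genes). H2B genes had the median closest to 0 of the 5 types, -0.12 over 9 tested, against -0.29 for 6 H1, -0.43 for 12 H2A, -0.35 for 8 H3 and -0.46 for 6 H4 genes. All 8 H3 genes were negative. The H2B gene Hist1h2bk, whose window is printed above, had 14.9 and 18.4 CPM in PE and 19.9 and 13.5 CPM in control, a fold change of 0.997. Hist1h2ba, the testis H2B, had 8 and 14 counts in PE and 10 and 0 counts in control and was not tested.

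A sum over copies does not depend on which of the summed copies a read was given to. This holds only for reads that were counted within the sum. Whether reads that match several copies were counted at all is not given in the sources used here. Cluster histone transcripts together made up 0.067% and 0.0814% of counts in PE and 0.113% and 0.0867% in control. Their summed level was 680 and 829 CPM in PE and 1092 and 868 CPM in control, a mean of 755 ± 106 CPM in PE and 980 ± 158 CPM in control (SD, n = 2 each). The ratio of PE to control was 0.77, or 0.869 without control replicate 1 and 0.691 without control replicate 2. PE replicate 2 and control replicate 2 lay close together, and PE replicate 1 was lowest and control replicate 1 highest.

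By type, the summed H1 genes gave 296 and 345 CPM in PE against 449 and 356 CPM in control. H2A gave 84.5 and 106 CPM in PE against 129 and 112 CPM in control. H2B gave 30.8 and 38.4 CPM in PE against 42.6 and 35 CPM in control. Only for H2B did the groups overlap, with PE replicate 2 above control replicate 2. H3 gave 134 and 187 CPM in PE against 249 and 192 CPM in control, and H4 gave 134 and 154 CPM in PE against 222 and 172 CPM in control. The replacement and variant genes together gave 547 and 480 CPM in PE and 497 and 584 CPM in control, a ratio of 0.951, and overlapped. No test was made on these sums.

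**Figure D2:**
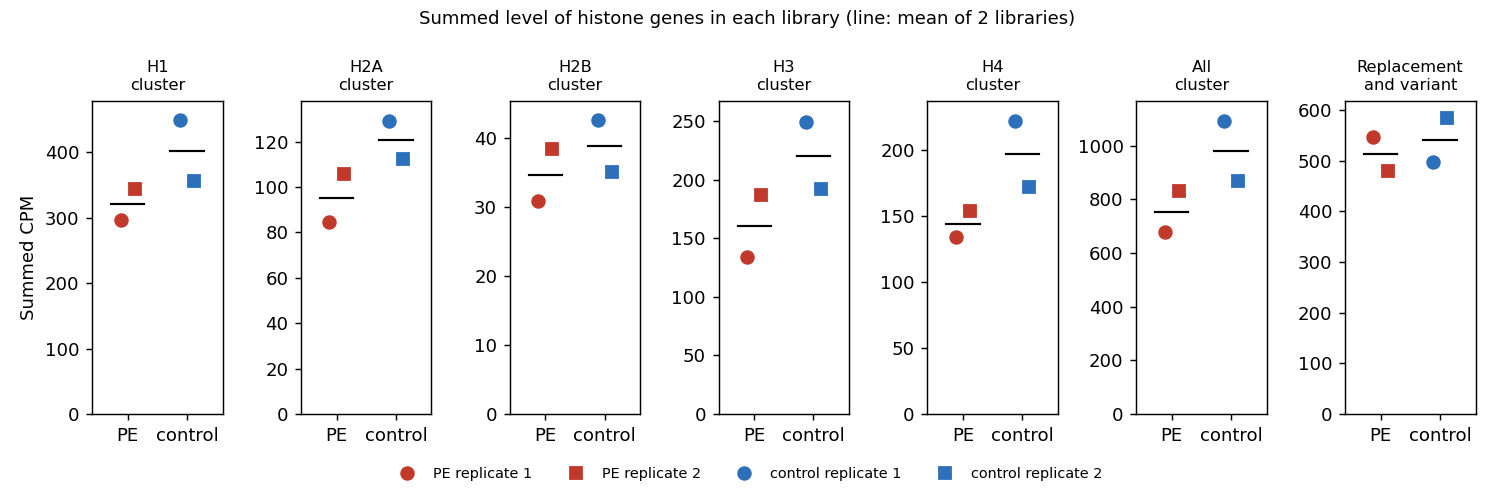
Summed CPM (y axis, from 0, with its own scale in each panel) of the cluster genes by histone type, of all cluster genes and of the replacement and variant genes, in each library; points are libraries and lines are means of 2. PE lies below control without overlap for H1, H2A, H3, H4 and the cluster total, and the groups overlap for H2B and for the replacement and variant genes.

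The replacement and variant genes were described by what their proteins do. H3f3a and H3f3b encode the same H3.3 protein, which replaces H3 outside replication. H3f3a had 145 and 108 CPM in PE and 120 and 152 CPM in control (-0.10 ± 0.19, adjusted p = 0.776). H3f3b had 230 and 192 CPM in PE and 176 and 229 CPM in control (0.06 ± 0.18, adjusted p = 0.876). Both varied as much within a group as between groups. H3f3c had 3.92 and 2.27 CPM in PE and 2.25 and 4.08 CPM in control (-0.02 ± 0.34, adjusted p = 0.976), the same pattern at a lower level.

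H2afz and H2afv encode the forms of H2A.Z, a variant found around gene starts. H2afz had 25.5 and 24.8 CPM in PE and 24.4 and 23.6 CPM in control (0.07 ± 0.17, adjusted p = 0.835), a narrow range over all 4 libraries. H2afv had 11.1 and 9.53 CPM in PE and 13.2 and 15.5 CPM in control (-0.47 ± 0.19, adjusted p = 0.138), with both PE libraries lower. H2afx encodes H2A.X, the variant phosphorylated at DNA breaks, and its gene is known to yield both stem-loop and polyadenylated messages. H2afx had 55.1 and 62.5 CPM in PE and 77 and 77.9 CPM in control (-0.40 ± 0.16, adjusted p = 0.132), again with both PE libraries lower and a control pair that agreed closely.

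H2afy and H2afy2 encode the macroH2A proteins, which carry a large extra domain and mark silent chromatin. H2afy had 57 and 57.9 CPM in PE and 62.8 and 62.9 CPM in control (-0.13 ± 0.16, adjusted p = 0.646). H2afy2 had 15.8 and 17.1 CPM in PE and 14.6 and 11.1 CPM in control (0.35 ± 0.20, adjusted p = 0.284). The groups did not overlap in either gene, in opposite directions. H1fx, a linker histone outside the clusters, had 4.08 and 5.72 CPM in PE and 6.11 and 7.66 CPM in control (-0.49 ± 0.24, adjusted p = 0.209), with both PE libraries lower. Without control replicate 1, which leaves 1 control library, the log2 fold changes were -0.64 for H1fx, -0.58 for H2afv, -0.40 for H2afx and 0.56 for H2afy2.

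The cluster genes varied together between libraries of the same group. In PE, 4 of 41 were higher in replicate 1 than in replicate 2, with a median difference of -0.31 in log2 CPM. In control, 31 of 41 were higher in replicate 1 than in replicate 2, with a median difference of 0.28. The replacement and variant genes had median differences of 0.04 in PE and -0.24 in control, with 2 of 9 higher in control replicate 1. Over all genes tested these medians were 0.002 and 0.02. The cluster median of -0.35 between PE and control is thus of the size of the differences within a group. Leaving out PE replicate 1 gave -0.20 and leaving out PE replicate 2 gave -0.48. Leaving out control replicate 1 gave -0.16 and leaving out control replicate 2 gave -0.44.

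**Figure D3:**
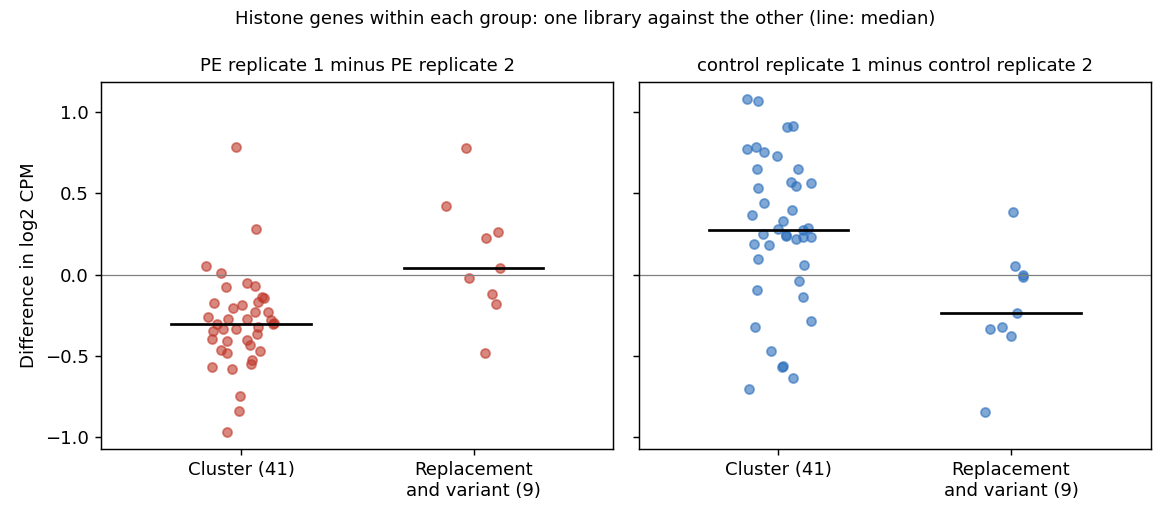
Difference in log2 CPM (y axis) between the 2 libraries of a group for each tested histone gene, PE replicate 1 minus replicate 2 (left) and control replicate 1 minus replicate 2 (right); lines are medians. Cluster genes lie mostly below 0 in PE (median -0.31) and mostly above 0 in control (median 0.28), while the replacement and variant genes have medians of 0.04 and -0.24.

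Genes of DNA replication and of mitosis were set beside the histones. Of 34 S-phase genes tested, 1 rose (2.94%, against 7.39% of all genes) and 33 did not pass (median 0.10), a share below the background. The gene that rose was Rrm2, a subunit of ribonucleotide reductase. Rrm2 had 34.1 and 33.6 CPM in PE and 24.1 and 18 CPM in control (0.69 ± 0.19, adjusted p = 0.0339), and it was not called without either PE library or with a replicate block. Of 23 mitosis genes, 3 rose (13%, against 7.39% of all genes) and 20 did not pass (median 0.37). Both PE libraries lay above both controls in 15 of the 23 (65.2%, against 28.5% of all genes). Anln, a protein of the cleavage furrow, had 51.5 and 55.9 CPM in PE and 23.5 and 25.1 CPM in control (1.14 ± 0.16, adjusted p = 0.00107). Ccnb1, cyclin B1, had 10.1 and 9.79 CPM in PE and 4.57 and 5.35 CPM in control (1.00 ± 0.20, adjusted p = 0.00729). Prc1, a protein of the spindle midzone, had 45.7 and 43.4 CPM in PE and 21.7 and 26.4 CPM in control (0.89 ± 0.17, adjusted p = 0.00621). The groups did not overlap in any of these 3 genes. No gene of either list was called lower by edgeR or DESeq2 or had an unadjusted p under 0.05 in that direction.

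Factors that make histone messages did not pass. Of 24 genes tested for histone gene transcription and 3′ end processing, 0 were called by edgeR or DESeq2 and 0 had an unadjusted p under 0.05 (median -0.04). The members named by abundance were Ncl, nucleolin, at -0.17 ± 0.27, and Fip1l1, of the cleavage machinery, at -0.11 ± 0.19 (adjusted p = 0.736 and 0.758). Slbp, chosen here after its values were seen because its protein binds the stem-loop, had 15.9 and 12.9 CPM in PE and 17.3 and 18.3 CPM in control (-0.31 ± 0.19, adjusted p = 0.327). Among 28 histone chaperone genes, 2 rose and 26 did not pass (median -0.01). The share that rose, 7.14%, was close to the 7.39% of all genes. None of the list was called lower by edgeR or DESeq2, with 1 lower at an unadjusted p under 0.05. Anp32e, which removes H2A.Z from chromatin, had 122 and 110 CPM in PE and 50.9 and 66.4 CPM in control (0.98 ± 0.18, adjusted p = 0.00461). Hat1, which acetylates new H4, had 27 and 23.8 CPM in PE and 12.1 and 18.4 CPM in control (0.74 ± 0.22, adjusted p = 0.0481). Neither was called without PE replicate 1, and 1 of the list was called without PE replicate 2, without mitochondrial genes or with a replicate block.

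**Figure D4:**
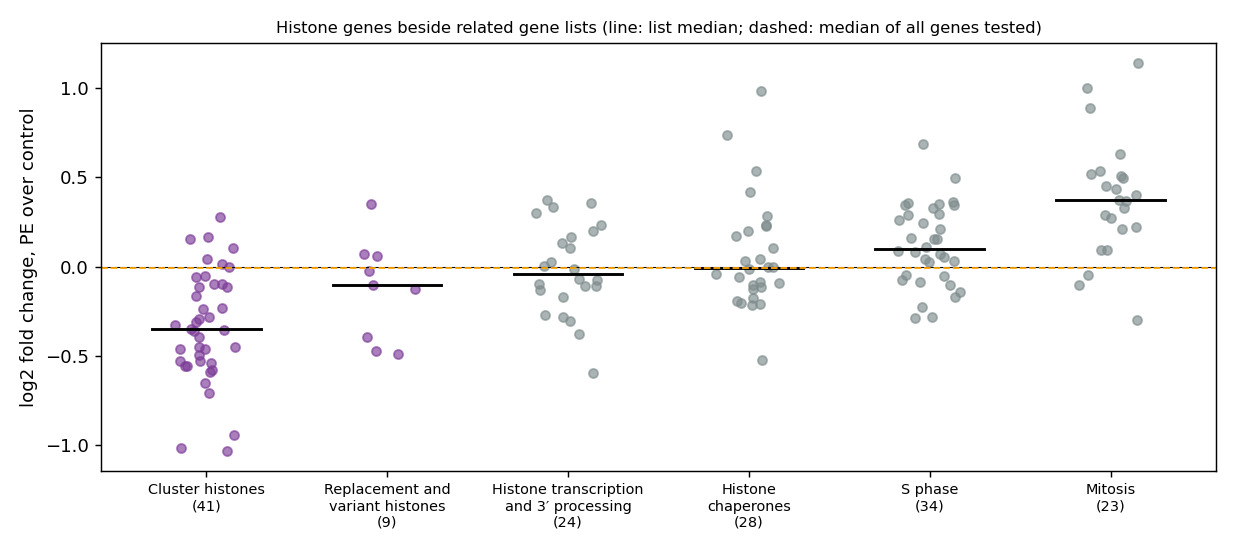
Log2 fold change of PE over control (y axis) for the tested genes of the cluster histones, the replacement and variant histones and 4 related lists, with the number of genes in brackets, list medians as lines and the median of all genes tested (-0.01) dashed. The cluster histones have the lowest median of these lists (-0.35) and the mitosis genes the highest (0.37).

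Summed markers of cell types also differed between the groups. Summed cardiomyocyte markers (8 genes with a row) were at 24741 and 26222 CPM in PE and 17025 and 18233 CPM in control. Actc1 and Myl2 were called higher (25%, against 7.39% of all genes). The median log2 fold change of the 8 was -0.07, with 4 negative. Without Actc1, left out after its values were seen, the other 7 summed to 11654 and 12431 CPM in PE and 12070 and 13855 CPM in control, and the groups overlapped. Fibroblast markers (9 genes) summed to 10287 and 10187 CPM in PE and 18336 and 16450 CPM in control. Of the 8 tested, 2 were called lower (25%, against 8.3% of all genes) and 4 were positive. Without Col1a1 and Col3a1, also left out after their values were seen, the fibroblast sums were 4410 and 3234 CPM in PE and 3834 and 5893 CPM in control, again with overlap. None of the cell type markers with a row was at 0 in a library, although Col1a2 stayed between 0.0178 and 0.0932 CPM. The cardiomyocyte marker Ttn and the endothelial marker Pecam1 were also listed but had no row under these names. Endothelial markers (6 genes) summed to 126 and 130 CPM in PE and 213 and 213 CPM in control, macrophage markers (7 genes) to 95.9 and 99.4 CPM in PE and 144 and 157 CPM in control, and mural cell markers (6 genes) to 509 and 552 CPM in PE and 756 and 671 CPM in control. Of these, 5 of 6 (83.3%), 2 of 7 (28.6%) and 1 of 6 (16.7%) were called lower, against 8.3% of all genes. The remaining endothelial marker, Tek, was at 0.24, with both PE libraries above both controls. Their part in the histone values was not tested, and fewer cells of a type cannot be told apart from less RNA per cell. Library totals ranged from 45637881 to 56948370 counts, and mitochondrial transcripts took 4.61% and 4.76% of counts in PE and 6.19% and 11.7% in control.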

How the data were processed

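The raw counts per gene deposited by the authors were used as deposited. Cutadapt 2.0, STAR 2.4.2a and featureCounts 1.6.4 with build Rnor_6.0 are named per the submitters' processing notes; the sources used here give neither the annotation release nor the settings for strand and for reads that match several genes. The authors' deposited table of log2 fold changes, p-values and adjusted p-values supplied gene names and types, per the file headers. Genes were tested with edgeR 4.0.16 (limma 3.58.1, R 4.3.3) by the quasi-likelihood test over all genes that passed its filter (minimum count 10, minimum total 15), with TMM factors and Benjamini-Hochberg adjustment; an adjusted p under 0.05 was a call. CPM use library sizes multiplied by the TMM factors. Alternatives were DESeq2 1.42.0, library sizes alone, no filter, no mitochondrial genes, a replicate block, each library left out and, added after seeing the data, a crossed replicate block. The fit was tested on simulated data. Between libraries of a group, chi-square over its degrees of freedom was 19.8 in PE and 133 in control, so none was a copy. Members and lists were chosen with earlier results of these data known. Named were all replacement and variant genes tested, every cluster gene called and the 10 with the highest mean CPM, and up to 5 called genes per list or its 2 most abundant; others were chosen after their values were seen. Where a list symbol had several identifiers, the most abundant was used. Promoter windows and gene order came from RefSeq (GRCr8), matched by symbol or synonym.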

Additional observations from a re-analysis of the deposited data

How the results depend on the processing

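With 2 libraries a group, the calls rest on which libraries enter. Genes called over the whole table numbered 2393, and 1205 to 4755 when each library was left out; a lone library is then assumed to vary like the remaining pair. Cluster genes called lower (2) numbered 0 to 15 and those called higher (0) numbered 0 to 4 over the same 4 fits, with 5 lower without a filter; replacement and variant genes called lower (0) numbered 0 to 3 and higher (0) 0 to 1. The 4 cluster genes called higher without control replicate 1, named after their values were seen, were Hist1h2ail1 (0.56), Hist1h2ba, which then had 0 counts left in control, and ENSRNOG00000050933 (0.93) and ENSRNOG00000057690 (0.69), both named Hist2h4a. The median log2 fold change of the replacement and variant genes, -0.10, ranged from -0.26 to 0.10 and was -0.15 with library sizes alone, which moved the median of all genes to -0.05. The cluster median stayed negative in all 10 alternatives, between -0.48 and -0.16. Both called cluster genes were called in every alternative except without PE replicate 1; the cause was not tested.

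Chaperone genes called higher (2) numbered 0 to 7 with a library left out and 1 without mitochondrial genes, and lower (0) 0 to 4. S-phase genes called higher (1) numbered 0 to 6, 2 with DESeq2 and 2 without a filter, and lower (0) 0 to 1. Mitosis genes called higher (3) numbered 2 to 13 and lower (0) 0 to 1. Genes of histone transcription and processing called higher (0) numbered 0 to 5 and lower (0) 0 to 1.

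The replicate numbers are shared by the groups, but the labels do not state whether same-numbered libraries were paired. Their deviations correlated at -0.229 over all genes tested, which cannot settle this with 2 libraries a group. With a replicate block 1964 genes were called, 2 cluster genes were lower, 1 chaperone and 0 S-phase genes were higher. With the crossed pairing, added after seeing the data, 4677 genes were called, 12 cluster and 3 replacement genes lower, and 4 chaperone, 4 S-phase, 12 mitosis and 1 processing genes higher and 1 chaperone gene lower. Depth limits Hist1h1t, Hist1h2ba, Hist3h2ba and Hist3h2bb, with summed counts of 32 to 73.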

Other observations

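A further identifier, ENSRNOG00000057700, is named Hist1h2an in the authors' deposited table but typed as a pseudogene, so the name rule left it out. It had 21.8 and 26 CPM in PE and 27.2 and 19.7 CPM in control (log2 fold change 0.03, adjusted p = 0.955 in edgeR). Its groups overlapped, with control replicate 1 the highest library and control replicate 2 the lowest. The protein-coding Hist1h2an also had its highest level in control replicate 1, but was lowest in PE replicate 1.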
